A study of Mus musculus with 3 samples.

Results

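The glucocorticoid receptor (GR) bound 227 autosomal sites at a listed height of 1.3 RPM or more in GRdim macrophages for which the wild-type list gave no peak. RPM is read here as the number of reads at a peak for every 1000000 reads of that sample, as computed by the authors. The unit is taken from a mark in the peak names, and no header states it or which reads were counted. The sites were chosen by measured values: a peak of the GRdim list on an autosome, of at least that height, with no peak midpoint of the wild-type (WT) list closer than 200 bp. They are 227 of the 822 GRdim peaks, and 227 of the 401 autosomal GRdim peaks that reach the height. The other 174 of those 401 had a WT peak that close and are called shared below. Below the height, 349 further autosomal GRdim peaks had no WT peak and are called the lower GRdim-only peaks.

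Both peak lists come from chromatin immunoprecipitation and sequencing (ChIP-seq) of macrophages grown from the femoral bone marrow of 12-week-old mice, with an antibody against GR. GRdim mice carry a mutated receptor in every cell, and their controls were GR+/+ litter-mates (the WT list). Both were crossed back to BALB/c for 4 generations or more. The treatment described for the cells is dexamethasone, a synthetic glucocorticoid, at 1 µM overnight and/or lipopolysaccharide (LPS), a bacterial endotoxin, at 100 ng/ml for 3 hours, and which of these the sequenced cells received is not stated. Each genotype is represented by 1 library. Variation between mice could not be measured, and the tests below set peak lists against each other rather than genotypes. No RNA or marker gene was measured, so the macrophage label has no check in these data.

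GR is a steroid-activated transcription factor. Bound by ligand, it enters the nucleus and can sit on DNA as a dimer, with each receptor on one arm of a palindromic sequence called the glucocorticoid response element. It can also bind as a monomer at single arms, or reach DNA through other factors such as AP-1 and NF-kB, which LPS activates in macrophages. The GRdim mutation changes the loop through which the DNA-binding domains of paired receptors touch, and it was made to weaken dimer binding. Macrophages are a main target of glucocorticoids in inflammation. Peaks listed in the mutant and not in the control are therefore a natural set to describe, although a peak list alone does not tell how the receptor is held at a site.

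The height limit places all members in the upper part of the GRdim list, which has a median of 1.25 RPM, and most of them stood near the limit. Their heights ran from 1.32 to 3.36 RPM, with a median of 1.52 and quartiles of 1.38 and 1.85. Only 35 reached 2 RPM, 12 reached 2.5 RPM and 2 reached 3 RPM. The 174 shared GRdim peaks of the same height range had a median of 1.78 RPM and a highest value of 7.97, and 55 of them reached 2 RPM. The 247 autosomal WT peaks of 1.3 RPM or more with no GRdim peak (the WT-only peaks) had a median of 1.62 RPM and a highest value of 7.10. These heights served to choose the peaks and are given as a description.

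**Figure D1:**
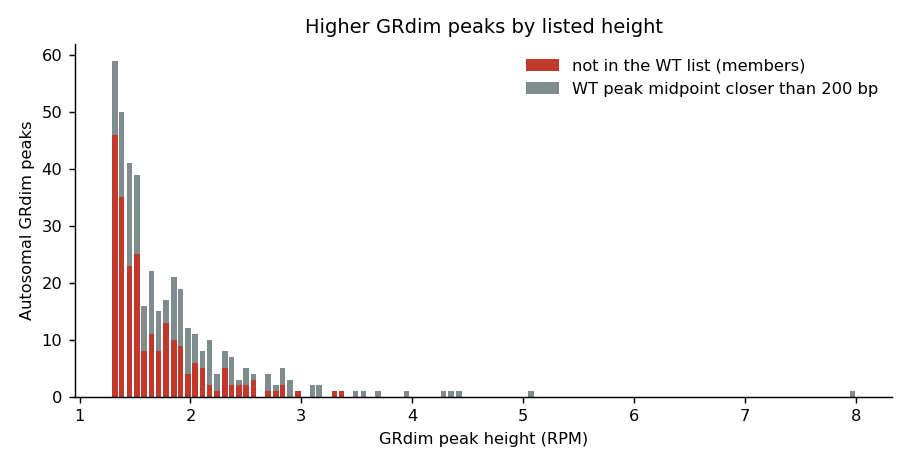
Number of autosomal GRdim peaks of 1.3 RPM or more (vertical axis) at each listed height (horizontal axis, RPM), split into the 227 members (red) and the 174 shared peaks (grey). Members crowd at the left, with 46 at 1.32 RPM, and the peaks to the right of 3.36 RPM are all shared.

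The part of GRdim peaks without a WT counterpart fell with height. Among autosomal GRdim peaks of any height, 70.5% (576 of 817) had no WT midpoint closer than 200 bp, against 56.6% (227 of 401) at 1.3 RPM or more. In steps of height the share was 69.3% of 150 peaks from 1.3 to 1.5 RPM, 54.7% of 161 peaks from 1.5 to 2 RPM, 44.0% of 75 peaks from 2 to 3 RPM and 13.3% of 15 peaks above that. The last value rests on 2 peaks, with an exact binomial 95% interval of 1.66 to 40.5%. The rule used these values, so nothing is read from them.

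At the height limit the choice of members was a cut through a dense part of the list. The lowest members, 46 peaks at 1.32 RPM, stood next to 48 GRdim-only peaks at 1.25 RPM that the limit left out, and no peak lay between those heights. At the distance limit there was a wider gap. The shared peaks with the most distant WT midpoints lay 148, 157 and 167 bp away, at 2.31, 1.65 and 1.45 RPM. The closest members lay 240 bp (chr1:165613801-165614000, 1.32 RPM), 356 bp (chr13:53081246-53081445, 1.85 RPM) and 389 bp (chr13:42404088-42404287, 1.38 RPM) from a WT midpoint. Coordinates are those of the mm9 build, counted from 1.

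The WT list also stops at a floor, with a lowest height of 1.01 RPM, so a member may be bound in WT cells below that level. Heights rise in even steps, and with a step taken as 1 read the members held 20 to 51 reads, with a median of 23. A peak of 20 reads then has an exact Poisson 95% interval of 0.805 to 2.03 RPM, which reaches below the WT floor. The interval lay wholly above 1.01 RPM for the 98 members of 1.58 RPM or more (43.2%) and reached to or below it for the other 129. This split follows from height alone, which the rule used. The floor is the lowest listed WT height and not the WT signal at these sites, so the split does not measure a difference between genotypes. These intervals cover counting error in 1 GRdim library, and peaks picked for their height tend to be overestimated.

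The tallest member was chr9:99082703-99082902, at 3.36 RPM (interval 2.50 to 4.42), the peak at rank 10 of the whole GRdim list. It stood alone. The nearest WT peak, 2.23 RPM high, and the nearest other GRdim peak, 1.91 RPM high, lay 2782.82 and 2782.83 kb away, and belong to 1 shared site. The second, chr11:83460273-83460472, reached 3.30 RPM (2.44 to 4.34) in company, with a WT peak of 1.35 RPM only 2.6 kb away. The fourth was its neighbour chr11:83479207-83479406 at 2.83 RPM.

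The third, chr2:152614634-152614833, had 2.97 RPM (2.16 to 3.97) and lay 17.3 kb from a strong shared site of 4.87 RPM in WT and 4.42 RPM in GRdim. A further tall member on the same chromosome, chr2:153017264-153017463 at 2.77 RPM, lay between shared sites, 21.0 kb from one (2.23 RPM in WT, 2.70 in GRdim) and 23.3 kb from the other (2.43 and 2.37). In both places the shared sites named had similar heights in the 2 lists, while the member was listed in GRdim alone. The lists do not give the WT signal at the members, which may lie below the lowest listed WT height of 1.01 RPM. By contrast chr2:28395587-28395786, at 2.83 RPM, was isolated, with no WT peak within 3182 kb.

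The remaining members among the 10 tallest were chr18:5397471-5397670 at 2.70 RPM and 3 peaks at 2.57 RPM: chr12:27127153-27127352, chr12:56060620-56060819 and chr14:103456646-103456845. Their nearest WT peaks were 1083, 925, 555 and 2107 kb away, in that order. Of these 4, the chromosome 14 peak and the first chromosome 12 peak had a close GRdim neighbour, described below. Among the 35 members of 2 RPM or more, which lay on 15 of the 19 autosomes, 25 had no WT peak within 100 kb, 13 had none within 1 Mb, and 6 had one within 20 kb. Over all 227 members these numbers were 160, 62 and 30.

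**Figure D2:**
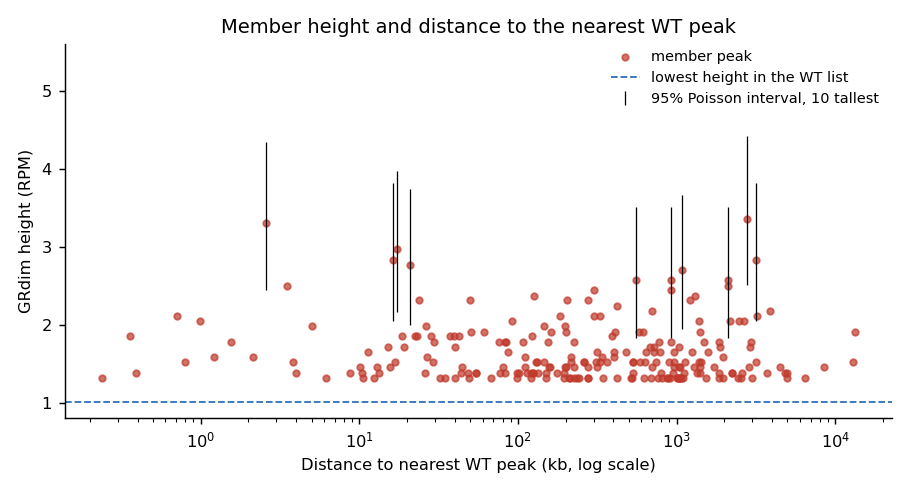
Height of each member in RPM (vertical axis) against the distance to the nearest WT peak in kb (horizontal log axis), with 95% Poisson intervals on the 10 tallest and the lowest WT height, 1.01 RPM, as a dashed line. The 10 tallest members lie either within 21 kb of a WT peak or 555 kb or more from one, and the 2 tallest lie 2783 and 2.6 kb away. Other members of 2 RPM or more lie at distances between these.

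Most members lay far from any WT peak, as did most lower GRdim-only peaks. The distance from members to the nearest WT peak had a median of 301 kb and quartiles of 71.8 and 1043 kb. For the lower GRdim-only peaks the median was 353 kb and the quartiles 83.5 and 1189 kb. The WT-only peaks lay a median of 524 kb from the nearest GRdim peak, measured to a shorter list (822 against 1076 peaks). The members farthest from WT binding were chr7:3503411-3503610 at 1.91 RPM (13290 kb), chr1:107861795-107861994 at 1.52 RPM (12993 kb) and chr9:31925515-31925714 at 1.45 RPM (8458 kb). Within 20 kb, 30 of 227 members (13.2%, exact binomial 95% interval 9.10 to 18.3) had a WT peak, against 36 of 349 lower GRdim-only peaks (10.3%, 7.33 to 14.0). Distance to WT peaks is part of the rule, so these distances and shares were not tested.

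The 30 members close to WT binding are sites where both forms of the receptor occupied the same neighbourhood. Lack of a counterpart was common: 70.5% (576 of 817) of autosomal GRdim peaks of any height had no WT midpoint closer than 200 bp. The share of WT-only peaks in the whole WT list was not computed, so the split below is a description. For 20 of the 30 members (66.7%) the nearest WT peak was itself WT-only, at any height, so the listed positions lay a short way apart. For the other 10 it was a shared site, so GRdim had a second listed peak beside a common one. The member was taller than that nearest WT peak in 25 of the 30, a comparison of heights in separate libraries that the height limit of 1.3 RPM for members, against 1.01 for WT peaks, favours.

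Examples of the first kind were chr13:53081246-53081445, with 1.85 RPM in GRdim and a WT-only peak of 1.69 RPM 356 bp away, and chr2:131976749-131976948, with 2.11 RPM and a WT-only peak of 1.22 RPM 706 bp away. At chr19:10060541-10060740 the WT-only peak, 994 bp away, was the taller, at 2.70 RPM against 2.04. Counting both kinds, 6 members had a WT peak within 1 kb. Of these, chr5:20637878-20638077 at 1.52 RPM was of the second kind. It lay 0.794 kb from a shared site of 1.01 RPM in WT and 1.52 in GRdim. Every listed peak is 200 bp wide, so the breadth of binding at sites this close was not tested. Within 1 list no peaks lay closer than 441 bp in GRdim or 451 bp in WT. The members 240, 356 and 389 bp from a WT midpoint lie below that spacing. Whether they and the WT peak are separate sites or 1 site placed differently was not tested.

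An example of the second kind was chr14:70733459-70733658 at 2.50 RPM, which lay 3.5 kb from a shared site of 1.89 RPM in WT and 1.98 in GRdim. Another was chr17:26651712-26651911 at 1.58 RPM, and here the surroundings leaned the other way. The shared site 2.1 kb from it had 3.92 RPM in WT and 1.52 in GRdim, a second shared site 5.3 kb away had 2.30 and 1.38, and a WT-only peak of 7.10 RPM lay 20.5 kb away. A site listed in GRdim alone thus occurred within a stretch where every shared site was higher in WT.

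Members were next placed by all listed peaks within 100 kb. Most, 122 of 227 (53.7%), had no other peak of either list there. Another 38 (16.7%) had at least 1 other GRdim peak and no WT peak, 24 (10.6%) had a WT peak and no other GRdim peak, and 43 (18.9%) had both. Another GRdim peak thus lay within 100 kb of 35.7% of members. The difference from shared peaks of the same heights had a 95% Newcombe interval of -8.24 to 10.5 percentage points (Fisher's exact p = 0.83). Members exceeded the lower GRdim-only peaks by 11.6 points (Fisher's exact p = 0.0034), in a comparison added after seeing the data. These values do not show members to be more isolated from other GRdim peaks than either list. Median heights were 1.45 RPM for members alone, 1.59 RPM beside GRdim peaks, 1.68 RPM beside WT peaks and 1.52 RPM beside both, and the 4 ranges overlapped.

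Spacing within the GRdim list was not used by the rule, so members could be tested against shared peaks of the same height range. Of the members, 39 of 227 (17.2%, exact binomial 95% interval 12.5 to 22.7) had another GRdim peak within 20 kb, against 12.2% of all 822 GRdim peaks. The shared peaks of the same height range gave 28 of 174 (16.1%, 10.97 to 22.4), a difference of 1.09 percentage points (95% Newcombe interval -6.47 to 8.29) that Fisher's exact test, two-sided, did not separate from 0 (p = 0.79, Benjamini-Hochberg adjusted over 2 comparisons 0.79). The lower GRdim-only peaks gave 29 of 349 (8.31%, 5.64 to 11.7). Members exceeded these by 8.87 percentage points (3.37 to 14.8, Fisher's exact p = 0.0015, adjusted 0.0030), a comparison added after the values had been seen. Both lists lack a WT peak and are divided by the 1.3 RPM limit of the rule. The test therefore sets taller against lower peaks and does not bear on being listed in GRdim alone. Without chromosomes 11 and 12, which hold the largest groups of members, the same difference was 5.70 points (Fisher's exact p = 0.047), and at 5 kb it was 3.06 points and did not pass (p = 0.15).

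Across the 1.3 RPM limit the order was the same among shared sites, since 4 of the 67 shared peaks under 1.3 RPM (5.97%, 1.65 to 14.6) had such a neighbour. Among shared sites the share did not rise further at 2 RPM or more. For the shared sites the difference by height was not tested. Neighbouring peaks count for each other, so peaks are not independent in these comparisons by list. Their p-values are too small and their intervals too narrow. At 2 RPM or more the share rose to 11 of 35 members (31.4%, 16.9 to 49.3), against 7 of 55 shared peaks (12.7%, 5.27 to 24.5). That difference was 18.7 percentage points, with a Newcombe interval of 1.58 to 36.5 and a Fisher's exact p of 0.056 that misses the threshold. The interval lies above 0 only if peaks are taken as independent. Pairs on chromosomes 11 (3.30 and 2.83 RPM), 12 (2.44 and 2.57) and 14 (2.57 and 2.50) count both of their peaks here.

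**Figure D3:**
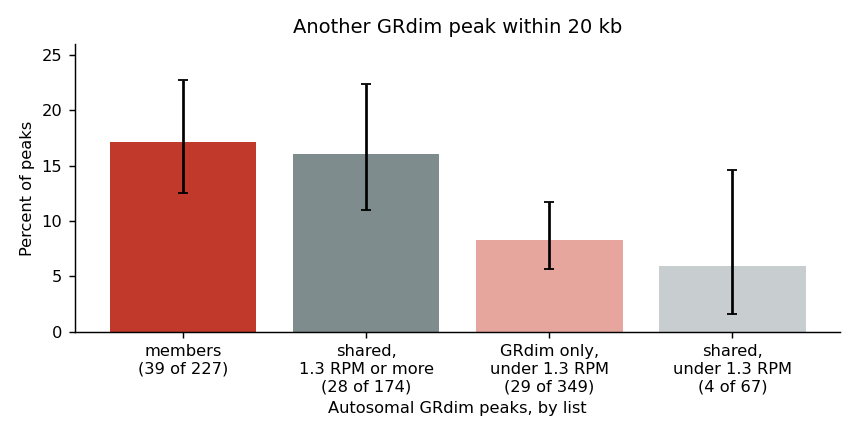
Percent of autosomal GRdim peaks (vertical axis) with another GRdim peak within 20 kb, for the 4 lists on the horizontal axis, with exact binomial 95% intervals as bars. The values are 17.2% for members, 16.1% for shared peaks of the same heights, and 8.31% and 5.97% for the lists under 1.3 RPM; the interval of the shared peaks overlaps those of the other 3 lists, and that of the members overlaps all but the lower GRdim-only peaks.

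The nearest GRdim neighbour of the 39 members was another member in 20 cases, a lower GRdim-only peak in 10 and a shared site in the other 9. Members that are each other's nearest peak are both counted, and the other lists were not split this way. Chained with gaps of up to 20 kb, members formed 11 pairs and no longer run, and the remaining 205 stood singly. The gaps within pairs ran from 0.671 to 18.9 kb with a median of 6.81 kb. No WT peak lay within 100 kb of either peak in 8 of the 11 pairs. Over all members 160 of 227 (70.5%) had none that close, so this is not read as a trait of pairs. The pairs were picked after the rule for naming runs of 3 or more had found none.

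Several pairs were evenly matched in height. On chromosome 14, chr14:103456646-103456845 and chr14:103458239-103458438 had 2.57 and 2.50 RPM, 1.59 kb apart, with the nearest WT peak 2106 kb away. On chromosome 12 a pair 1.36 kb apart had 2.44 and 2.57 RPM (chr12:27125793-27125992 and chr12:27127153-27127352), and a second pair 34.6 kb further on had 1.65 and 1.52 RPM, 0.671 kb apart (chr12:27161753-27161952 and chr12:27162424-27162623). Others were uneven, as on chromosome 13, where chr13:52695788-52695987 had 1.45 RPM and chr13:52710501-52710700, 14.7 kb away, had 2.44 RPM. The pairs on chromosomes 4 (1.38 and 1.91 RPM, 6.81 kb apart) and 7 (1.38 and 1.91 RPM, 5.61 kb apart) were lower.

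With gaps of up to 100 kb, 3 groups held 3 or more members. The largest, on chromosome 11 (chr11:83337588-83479406), had 5 members of 1.38 to 3.30 RPM over 142 kb, together with 2 lower GRdim-only peaks and 1 WT peak. The members were at 1.38, 1.85, 1.45, 3.30 and 2.83 RPM in their order along the chromosome, so the tallest was next to last. Beyond the last member came a WT-only peak of 2.03 RPM and a shared site of 1.08 RPM in WT and 1.32 in GRdim, 70.4 and 90.4 kb from the tallest member.

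The second group was the set of 4 on chromosome 12 described above, which spans 36.6 kb with no WT peak inside and none within 924 kb. The last was on chromosome 2 (chr2:131929125-132006723), with 3 members of 1.38, 2.11 and 1.52 RPM over 77.4 kb and 1 WT peak, of 1.22 RPM, 706 bp from the middle one. These groups differ in their WT surroundings: GRdim peaks were accompanied by WT peaks on chromosomes 11 and 2 and by none on chromosome 12. They were found by their counts, so no test was made of them.

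**Figure D4:**
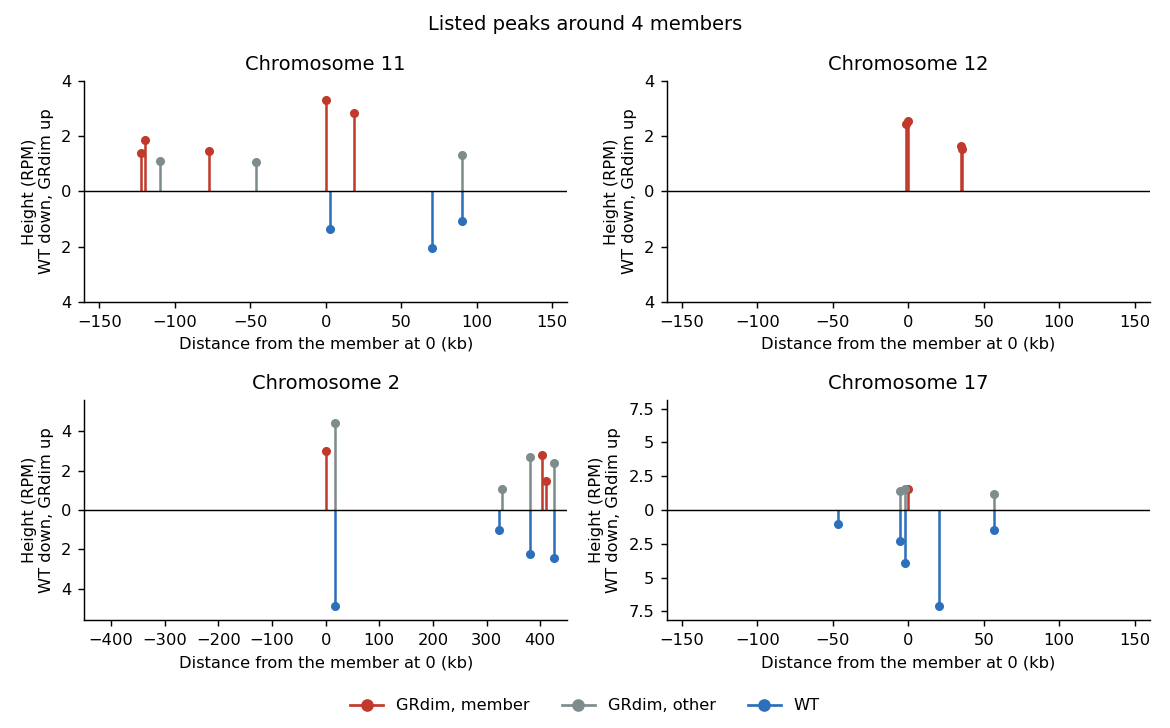
Height in RPM of every listed peak (GRdim upward, WT downward) against distance in kb from the member placed at 0, for chr11:83460273-83460472, chr12:27127153-27127352, chr2:152614634-152614833 and chr17:26651712-26651911. Members are red, other GRdim peaks grey and WT peaks blue. Chromosome 12 shows 4 members and no WT peak, chromosome 2 shows members beside evenly matched shared sites, and chromosome 17 shows a member of 1.58 RPM among 5 WT peaks of 1.01 to 7.10 RPM.

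Members occurred on all 19 autosomes. The most were on chromosomes 2 (23), 11 (22), 13 (18) and 5 (16), and the fewest on chromosomes 3 (5) and 18 (6). Chromosome 11 also led the shared peaks (23) and the WT-only peaks (25). Chromosome 5 held 16 members and 4 shared peaks (7.05% against 2.30% of each list, Fisher's exact p = 0.037, adjusted 0.35), and chromosome 1 held 8 members and 16 shared peaks (3.52% against 9.20%, Fisher's exact p = 0.020, adjusted 0.35). After Benjamini-Hochberg adjustment over the 19 autosomes no chromosome passed 0.05, in Fisher's exact test against the shared peaks (2 had an unadjusted p under 0.05) or against the WT-only peaks (3 did).

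Median member heights by chromosome ran from 1.38 RPM on chromosomes 13 and 16 to 2.11 RPM on chromosome 14. Chromosome 14 had 8 members, 4 of them of 2 RPM or more, while chromosome 13 had 18 members with 1 of that height. Chromosome 11 had 6 of the 35 members of 2 RPM or more and chromosome 2 had 5. On chromosomes 1, 3, 8 and 10 the highest member was at 1.78, 1.52, 1.78 and 1.52 RPM.

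**Figure D5:**
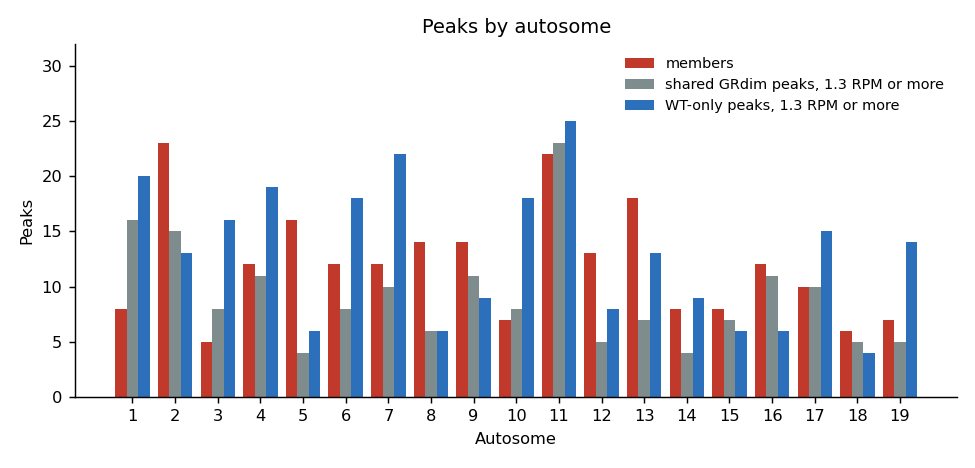
Number of peaks (vertical axis) on each autosome (horizontal axis) for the 227 members (red), the 174 shared GRdim peaks (grey) and the 247 WT-only peaks (blue), all of 1.3 RPM or more. Members reach 16 on chromosome 5 against 4 shared peaks, and no chromosome differed after adjustment.

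Sequence, response elements and nearby genes of these sites were not analysed here, since no mm9 genome or annotation was at hand, and no site is tied to a gene.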

How the data were processed

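The submitters' processing notes name Bowtie and the mouse build mm9. The version of Bowtie, the program that called peaks, its limits and any role of the input library are not given in the sources used. Input values were not used. Each deposited list covers 1 library and gives 200 bp windows with a height, read as RPM computed by the authors because the peak names carry the mark 1rpm and no height is below 1; no header states the unit. The deposited start and end positions (no unit of their own, other than base pairs) are printed counted from 1.

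Peaks were matched by midpoint distance. The value of 1 read was taken as the step between 0.05 and 0.1 RPM whose whole multiples lay closest to the heights (0.0659 RPM in GRdim, about 15.2 times 1000000 reads if the unit is RPM; 0.0675 RPM and 14.8 times 1000000 in WT). All 822 GRdim heights were whole within 0.1 read. No file states read numbers, so read numbers and Poisson intervals rest on this fit. Shares carry exact binomial (Clopper-Pearson) intervals for counting error only; reads carry no molecular identifiers. Shares were compared by two-sided Fisher's exact test with Benjamini-Hochberg adjustment. The number of members found and the fitted step were checked on simulated lists of known content. The spacing, pair, chromosome and interval results were not checked in this way. Python 3.11.15, numpy 2.4.6, scipy 1.17.1, pandas 2.3.3 and matplotlib 3.10.9 were used.

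The members, comparisons and alternatives were chosen with earlier results of these data known. Named sites are the 10 tallest members, runs of 3 or more members with gaps of up to 20 kb (none occurred), the 3 members nearest to and the 3 farthest from WT peaks, and the peaks at the limits of the rule; all other named sites were chosen after their values were seen. Other alternatives covered the height limit, the WT distance, the neighbour distance, merged neighbours and chromosomes left out. Motifs, gene positions and gene lists were planned and not run, since the available gene and promoter tables are of GRCm38 and builds were not mixed.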

Additional observations from a re-analysis of the deposited data

How the results depend on the processing

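Of 45 alternative values, 32 kept their direction, side of the threshold or range, 11 moved, 1 no longer passed 0.05 and 1 reversed; the cause was not tested except where a stricter limit leaves fewer peaks or a wider window takes in more. The number of members was 123 with a height limit of 1.5 RPM and 35 with 2 RPM, and the share of higher GRdim peaks without a WT peak was 49.0% and 38.9%. Moving the WT distance from 100 bp to 5 kb changed the number only from 235 to 214. The share of members with another GRdim peak was 7.93% within 5 kb, 26.4% within 50 kb and 35.7% within 100 kb, and 31.4% within 20 kb at 2 RPM or more. The share with a WT peak was 5.73%, 22.9% and 29.5% at the same distances. Members minus lower GRdim-only peaks, the comparison of taller with lower peaks added after seeing the data, no longer passed at 5 kb (3.06 percentage points, Fisher's exact p = 0.15). Its differences under all its alternatives ran from 3.06 to 20.9 points. Members minus shared peaks reversed to -2.21 points without chromosomes 11 and 12 (Fisher's exact p = 0.64), also chosen after seeing the data. Fisher's exact p stayed above 0.05 under every setting run for this difference. Its Newcombe interval lay above 0 at 2 RPM or more (18.7 points, 1.58 to 36.5) and with merged groups. The interval at 2 RPM or more takes neighbouring peaks as independent and is too narrow. With GRdim peaks merged into groups, members exceeded shared peaks by 6.55 points (0.259 to 12.4; Fisher's exact p = 0.055), but groups that hold both kinds counted as member groups, which favours members. No library could be left out. No paired analysis was possible because each genotype has 1 library. The floor near 1 RPM limits what an unlisted site means.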
